A study of Mus musculus with 12 samples.

Results

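Genes of the extracellular matrix and its receptors were examined in RNA sequencing libraries of mouse kidney. They were chosen by name: protein-coding genes whose symbols belong to the collagens, laminins, integrins, matrix metalloproteinases, Adam and Adamts proteases, Timp inhibitors, fibulins, fibrillins, thrombospondins, syndecans, glypicans or lysyl oxidases. Of 63 genes whose symbols match, 5 (Col1a1, Col5a1, Col6a2, Mmp8 and Itgam) were left out by the rule, and 58 members remained of 6440 protein-coding genes and 16383 genes in the table. The rule uses no measured value. Col4a3bp, which encodes a ceramide transfer protein, and Loxhd1, a hair cell gene, match by their letters alone and belong to none of these families. The 12 libraries formed 4 groups of 3: wild type (WT) after sham surgery, WT after ischemia and reperfusion (I/R), and the same surgeries in mice labelled Lrrk2 knockout (Lrrk2-/-, here KO sham and KO I/R). I/R was 30 min of ischemia of the left kidney at 37 °C, and the opposite kidney was removed in both the I/R and the sham animals. Neither the time from reperfusion to sampling nor the strain, sex and age of the mice is stated in the labels. The labels do not say that each library came from a separate mouse, so a p-value reflects the variation among these libraries, which may be technical.

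The table held 4678827 to 5456261 counts per library, and the members held 0.529% to 1.09% of them. Lrrk2 itself was at 432.6, 257.1 and 361.9 CPM (counts scaled to library size) in WT sham, at 58.3, 69.7 and 80.8 in WT I/R, at 96.5, 319.4 and 55.5 in KO sham, and at 74.2, 56.5 and 146.4 in KO I/R. The library labelled KO sham 2 therefore lay among the WT sham libraries, so Lrrk2 counts did not separate the genotype labels. The files do not say which exons the allele lacks. The library labelled KO sham 3 had 24.7% of its counts on mitochondrial genes, against 5.64% to 10.7% in the others. The library labelled KO sham 1 had 230.2 CPM of the tubular injury marker Havcr1, against 1.07 to 21.8 in the other sham libraries. In KO I/R 2, the count and FPKM columns did not match each other: 936 genes had an FPKM value without a count, and 533 had the reverse. The KO changes without KO sham 1 and KO sham 3, and the KO calls with reads recovered for KO I/R 2, are given together after the protease families.

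The extracellular matrix is the protein scaffold around and beneath cells. In the kidney, sheets of type IV collagen and laminin form the basement membranes of tubules and glomeruli, and collagens of other types fill the interstitium. Integrins, which are pairs of an alpha and a beta chain, and syndecans hold cells to the matrix, while metalloproteinases cut it and Timp proteins inhibit them. Tubule cells that survive ischemia spread over the bare basement membrane as they repair the tubule.

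After I/R, both metalloproteinases tested, the integrin chains Itga3 and Itgb4 and the syndecan Sdc1 rose in both genotype labels. The collagens Col4a3 and Col14a1, the laminin chain Lama3, the integrin chain Itgb8 and the inhibitor Timp3 fell in both. Of the falls called, 0 of 7 in WT and 3 of 10 in KO, Col14a1 among them, held without each library in turn. Of the 58 members, 41 had enough counts to test. In WT, 8 of the 41 rose (19.5%) and 7 fell (17.1%), by edgeR's quasi-likelihood test at an adjusted p under 0.05. Over all 5048 genes tested, 10.2% rose, 10.7% fell and 20.9% were called in either direction. In the KO-labelled libraries, 6 members rose (14.6%) and 10 fell (24.4%), against 11.9% and 11.5% of all genes, of which 23.5% were called in either direction. The members' median log2 fold change was -0.05 in WT, where that of all genes was -0.04, and -0.69 in KO, where that of all genes was -0.08. With KO sham 1 and KO sham 3 both left out, KO sham 2 is the only KO sham library. The members' KO median was then -0.23, where that of all genes was 0.02. Scaling to whole-library totals, in place of the composition-adjusted factors, moved the WT split from 8 up and 7 down to 10 up and 2 down, and the KO split from 6 up and 10 down to 5 up and 5 down. Over all genes it moved the WT shares to 12.6% up and 6.44% down and the KO shares to 10.8% and 7.81%. That scaling moved the median of all genes in WT from -0.04 to 0.10. Leaving out 1 library at a time gave 5 to 9 rises and 0 to 8 falls in WT, and 4 to 6 rises and 4 to 9 falls in KO. Over all genes the WT rises then ranged from 5.48% to 13.7% and the WT falls from 4.66% to 13.9%. The KO rises ranged from 8.31% to 14% and the KO falls from 6.91% to 12.4%. No member was called in WT among the falls without WT I/R 1, 1 was without WT I/R 2 or WT sham 1, and 2 were without WT I/R 3 or WT sham 3. In these fits the WT falls over all genes dropped too, from 10.7% to between 4.66% and 6.69%. The KO falls came to 4 without KO I/R 1, and to 6 without any of KO I/R 2, WT sham 1, WT sham 3 and the WT I/R libraries 1 and 2. Over all genes the KO falls in these fits were 6.91% to 10.1%.

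**Figure D1:**
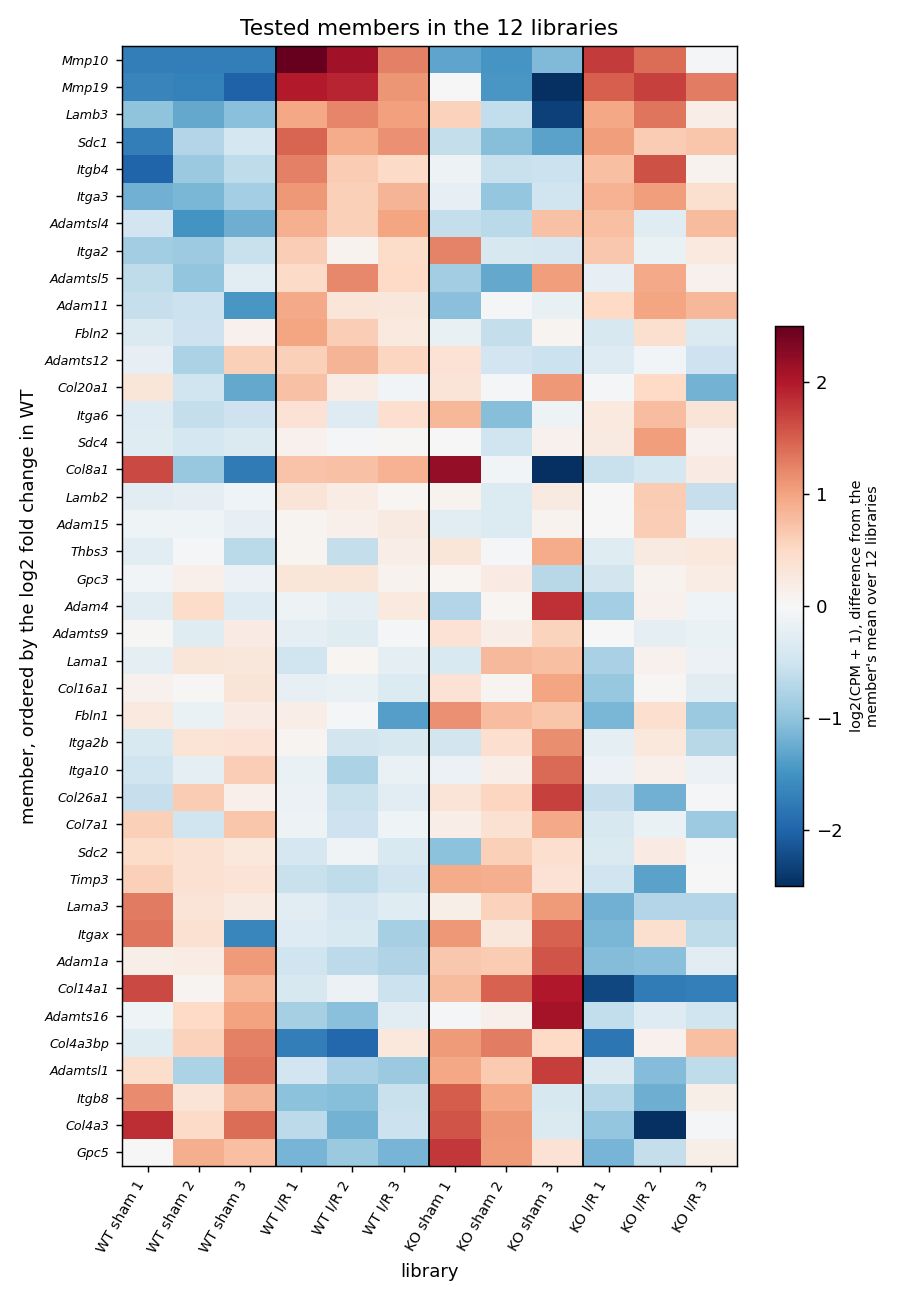
Level of the 41 tested members in each of the 12 libraries, as log2(CPM + 1) minus the member's mean over the libraries, with rows ordered by the log2 fold change in WT. Mmp10, Mmp19, Lamb3, Sdc1, Itgb4 and Itga3 at the top are low in WT sham and high in WT I/R, and Gpc5, Col4a3 and Itgb8 at the bottom are the reverse.

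The promoters of 4 members are printed to show members that rose and a member that fell. Mmp10 rose from no counts in WT sham, Itga3 and Sdc1 rose from a measurable sham level, and Timp3, the member with the most counts summed over all libraries, fell. The sequences are the 250 bases before the RefSeq start on GRCm38.p6, 5' to 3' on the gene's strand, for 4 of the 36 members that have an entry in that table. They lie at chr9:7502092-7502341 on the plus strand for Mmp10, chr11:95076715-95076964 on the minus strand for Itga3, chr12:8771146-8771395 on the plus strand for Sdc1 and chr10:86300162-86300411 on the plus strand for Timp3. Capitals mark matches, on either strand, to 3 motifs: the AP-1 site TGANTCA, the TATA box TATAAA and the GC box GGGCGG.
Mmp10: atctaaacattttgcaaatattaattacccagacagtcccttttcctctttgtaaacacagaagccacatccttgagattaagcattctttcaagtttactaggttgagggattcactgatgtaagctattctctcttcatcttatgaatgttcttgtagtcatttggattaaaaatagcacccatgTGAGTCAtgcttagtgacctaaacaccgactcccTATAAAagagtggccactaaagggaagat
Itga3: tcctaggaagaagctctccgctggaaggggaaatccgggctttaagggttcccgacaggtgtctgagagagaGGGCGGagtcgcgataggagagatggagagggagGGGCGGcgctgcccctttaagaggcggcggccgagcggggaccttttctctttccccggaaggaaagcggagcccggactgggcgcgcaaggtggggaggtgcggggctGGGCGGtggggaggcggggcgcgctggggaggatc
Sdc1: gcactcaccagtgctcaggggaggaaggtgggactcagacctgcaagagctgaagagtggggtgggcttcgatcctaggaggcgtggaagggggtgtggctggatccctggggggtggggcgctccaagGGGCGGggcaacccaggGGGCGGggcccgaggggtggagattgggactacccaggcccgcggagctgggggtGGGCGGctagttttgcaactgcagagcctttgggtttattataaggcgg
Timp3: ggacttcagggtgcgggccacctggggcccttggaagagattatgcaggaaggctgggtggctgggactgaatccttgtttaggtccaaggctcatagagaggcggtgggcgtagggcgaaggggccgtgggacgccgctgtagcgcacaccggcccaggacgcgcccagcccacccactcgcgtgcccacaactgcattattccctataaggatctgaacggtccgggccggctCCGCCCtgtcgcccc
The Mmp10 promoter held an AP-1 match that starts at base -63 and a TATA match at -29, counted from the start, and no GC box. The Itga3 promoter held 3 GC boxes, at -178, -144 and -35, and the Sdc1 promoter held 3, at -121, -104 and -49. The Timp3 promoter held 1, at -15. None of Itga3, Sdc1 and Timp3 held the AP-1 or TATA letters in this window. Among the 32851 promoters of the table, 6.75% held the AP-1 letters, 12.4% the TATA letters and 32.7% a GC box within the same window.

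Among the member collagens tested, falls were called and no rise was. Besides Col4a3, 6 were tested, of which 1 fell in WT (16.7%) and 3 in KO (50%), against 10.7% and 11.5% of all genes. Col1a1, Col5a1 and Col6a2 were left out by the rule, so nothing is said of them here. The members are a small part of the collagens: 0 of 8 other listed fibrillar and 0 of 7 other listed basement membrane collagens were analysed here. Col2a1, the fibrillar member, had too few counts to test. Col4a3 (ENSMUSG00000079465) is the alpha 3 chain of type IV collagen in the mature glomerular basement membrane. It was the most abundant per length of the collagens tested, at a mean of 19.7 FPKM (fragments scaled to transcript length and library size) in WT sham and 5.03 in WT I/R. Its values were 1019.4, 392.5 and 740.6 CPM in WT sham, against 179.5, 123.4 and 195.3 in WT I/R, with no overlap. In KO sham they were 846.1, 596.5 and 218.9, and in KO I/R 144.0, 45.2 and 274.6, where the library labelled KO sham 3 fell below KO I/R 3. The log2 fold change was -2.11 ± 0.62 (SE; adjusted p = 0.0312) in WT and -1.84 ± 0.61 (adjusted p = 0.0482) in KO. The WT call was lost without any of WT sham 1, WT sham 3 or the 3 WT I/R libraries (adjusted p 0.0752 to 0.116), and the KO call without any library other than KO sham 3 and KO I/R 3 (adjusted p 0.0528 to 0.151). Whole-library totals also ended both calls, at 0.0751 and 0.0943.

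Col14a1, a collagen that decorates the surface of interstitial collagen fibrils, was at 98.6, 32.4 and 55.5 CPM in WT sham, against 23.1, 27.8 and 20.9 in WT I/R. It was at 54.4, 88 and 126.6 in KO sham and 5.55, 8.42 and 8.68 in KO I/R. Neither pair of groups overlapped, and every KO I/R library was also below every WT I/R library. On the log2 scale the fold change was -1.38 ± 0.41 (adjusted p = 0.0324) in WT and -3.57 ± 0.45 (adjusted p = 0.000484) in KO. The KO call held without each library in turn (adjusted p at most 0.00383), whereas the WT call was lost without WT sham 1, WT sham 3 or any WT I/R library (adjusted p 0.0633 to 0.158).

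Both other collagens past the test were so in KO alone. Col26a1, a collagen with an EMI domain, was at 12.3, 14.3 and 33.5 CPM in KO sham and 6.11, 3.61 and 9.23 in KO I/R (log2 -1.65 ± 0.49, adjusted p = 0.0321), and its WT log2 change was -0.51 (adjusted p = 0.48). Without the library labelled KO sham 3 its KO log2 change was -1.06 (adjusted p = 0.101), and the call was also lost without KO I/R 1 (0.0866) or with KO I/R 2 left out (0.102). Col16a1, another fibril-associated collagen, stood at 53.6 to 101.7 CPM in KO sham and 25.9 to 52.2 in KO I/R (log2 -0.88 ± 0.30, adjusted p = 0.0499). That call lay at the threshold and was lost without any library other than KO sham 2 and KO I/R 2 (adjusted p 0.0649 to 0.159). The collagens Col7a1, Col8a1 and Col20a1 did not pass in either, with log2 changes of -0.64, 0.39 and 0.78 in WT and -1.06, -1.20 and -0.69 in KO. Col8a1, a short-chain collagen, varied most among sham libraries, from 4.53 to 58.2 CPM in WT sham and from 2.15 to 85.3 in KO sham.

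The laminin chains moved in opposite directions. Lama3 and Lamb3 are the alpha and beta chains of a laminin that anchors epithelia and is a ligand of integrins that contain the Itga3 or Itgb4 chain. Lamb3 was at 14.3, 11.6 and 13.8 CPM in WT sham, against 59.2, 70.8 and 61.8 in WT I/R, a log2 fold change of 2.27 ± 0.57 (adjusted p = 0.0162). In KO sham it was at 44.9, 19 and 5.1 and in KO I/R at 59.2, 76.3 and 33.2, a log2 fold change of 1.28 ± 0.55 (adjusted p = 0.116), and these groups overlapped. The high KO sham value belongs to KO sham 1, the sham library with raised Havcr1, and without it the KO log2 change was 2.20 (adjusted p = 0.014). That was the only single omission with a KO call of Lamb3. Over all of them the KO log2 change ran from 0.81 to 2.20 (adjusted p 0.014 to 0.282). Leaving out any 1 of the WT sham libraries ended the WT call (adjusted p 0.0522 to 0.0573).

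Lama3 was at 159.1, 80.5 and 74.6 CPM in WT sham, against 52.9, 47.4 and 51.9 in WT I/R (log2 -1.05 ± 0.32, adjusted p = 0.0394). It was at 71.3, 96 and 135.7 in KO sham and 27.4, 38.3 and 38 in KO I/R (log2 -1.55 ± 0.33, adjusted p = 0.00694). No groups overlapped. The KO call held without each library in turn (adjusted p at most 0.032). The WT call was lost without WT sham 1, any WT I/R library, KO sham 2 or KO I/R 3 (adjusted p 0.0501 to 0.192).

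The ratio of Lamb3 to Lama3 reads within a library does not depend on how libraries are scaled. This ratio, and the 2 that follow, were chosen after the values were seen. In WT it was 0.0901, 0.144 and 0.185 after sham and 1.12, 1.49 and 1.19 after I/R. It was 0.629, 0.198 and 0.0375 in KO sham and 2.16, 1.99 and 0.874 in KO I/R, where the value of KO I/R 2 was 1.55 with reads recovered from its FPKM column. Every I/R library was above every sham library. The mean log2 ratio rose by 3.23 in WT and 3.22 in KO, each with a two-sided exact permutation p of 0.1, the smallest that 3 against 3 libraries allow. The other laminin chains did not pass the test. Lamb2, the beta chain of mature glomerular basement membrane laminin and the most abundant laminin per length, had means of 9.95, 14.3, 11.1 and 11 FPKM in sham and I/R of WT and then of KO. Lama1, the alpha chain of early embryonic basement membranes that tubules keep, had log2 changes of -0.34 in WT and -0.73 in KO (adjusted p 0.511 and 0.155).

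**Figure D2:**
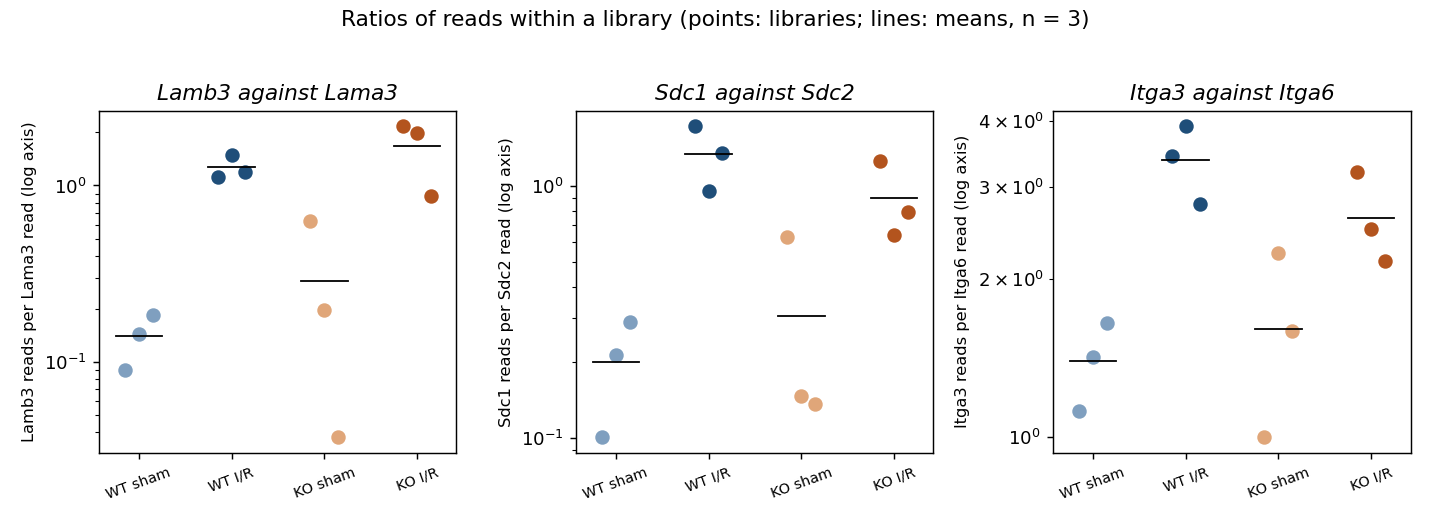
Reads of Lamb3 per Lama3 read, of Sdc1 per Sdc2 read and of Itga3 per Itga6 read in each library (log axes), with a line at each group's mean. For Lamb3 and Sdc1, all I/R libraries lie above all sham libraries of the same label, and for Itga3 against Itga6 the KO-labelled groups overlap.

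The member fibulins tested, Fbln1 and Fbln2, and the thrombospondin Thbs3, which are secreted glycoproteins of elastic fibres and matrix, did not pass the test. Fbln1, the more abundant fibulin per length, was at 18.4 ± 2.98 CPM in WT sham and 13.8 ± 6.98 in WT I/R, and at 32.3 ± 5.87 in KO sham and 12.9 ± 8.82 in KO I/R (SD, n = 3 each). Fbln2 had log2 changes of 0.93 in WT and 0.15 in KO (adjusted p 0.0755 and 0.777). Thbs3 lay between 3.94 and 13.9 CPM in all libraries.

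Among cell-surface heparan sulfate proteoglycans, Sdc1 rose and Gpc5 fell. Sdc1 (ENSMUSG00000020592), the main syndecan of epithelia, was at 34.8, 70.3 and 87.2 CPM in WT sham, against 325.7, 224.9 and 263.6 in WT I/R. It was at 78.1, 55.7 and 46.4 in KO sham and 245.3, 184.5 and 192.6 in KO I/R. All 6 I/R libraries were above all 6 sham libraries. The log2 fold change was 2.08 ± 0.34 (adjusted p = 0.00169) in WT and 1.79 ± 0.33 (adjusted p = 0.00352) in KO, and both calls held without each library in turn, with adjusted p of at most 0.00905 and 0.0174.

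Sdc2, the syndecan of mesenchymal cells, went from 324.7 ± 22.5 to 206.0 ± 25.6 CPM in WT and from 279.9 ± 136.8 to 242.6 ± 46.9 in KO (SD, n = 3), and did not pass the test (adjusted p 0.187 and 0.69 by edgeR). Sdc1 reads per Sdc2 read in WT were 0.101, 0.214 and 0.29 after sham and 1.73, 0.956 and 1.36 after I/R. They were 0.632, 0.147 and 0.137 in KO sham and 1.26, 0.64 and 0.788 in KO I/R, where the library labelled KO sham 1 lay just under KO I/R 2. With recovered reads the value of KO I/R 2 was 1.2, above it. The mean log2 ratio rose by 2.83 in WT and 1.88 in KO, each with an exact permutation p of 0.1. Sdc4, a syndecan of focal adhesions, was the most abundant of the family per length, with means of 97, 141.6, 113.4 and 158.7 FPKM in sham and I/R of WT and then of KO, and did not pass (adjusted p 0.315 and 0.122).

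Gpc5, a glypican anchored to the membrane by a lipid, had few counts. It was at 1.26, 3.2 and 2.75 CPM in WT sham and at 0, 0.183 and 0 in WT I/R, which is 36 counts against 1. The ratio was 40.6 with an exact 95% interval of 6.83 to 1650 that covers counting error only (edgeR's adjusted p = 0.0151), and omission of WT I/R 1 (0.0709) or of WT I/R 3 (0.0636) ended the call. In KO it went from 6.61, 3.68 and 1.88 to 0, 0.481 and 1.48 CPM (log2 -2.60 ± 0.88, adjusted p = 0.0498). The KO call was lost without any library other than KO sham 3 and KO I/R 3 (adjusted p 0.064 to 0.167), and its log2 change was -4.10 without KO I/R 3 and nearer to 0, with an adjusted p of 0.126, without KO I/R 1. Gpc3 had log2 changes of 0.26 and 0.06 (adjusted p 0.52 and 0.889).

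Integrin chains moved in both directions. Itga3 (ENSMUSG00000001507), the alpha chain of a laminin receptor of podocytes and tubules, was at 142.4, 149.2 and 182.8 CPM in WT sham, against 701.1, 497.0 and 596.3 in WT I/R. It was at 285.2, 168.7 and 232.3 in KO sham and 601.4, 681.6 and 434.7 in KO I/R. No sham and I/R libraries overlapped. The log2 fold change was 1.92 ± 0.26 (adjusted p = 0.000683) in WT and 1.32 ± 0.26 (adjusted p = 0.00461) in KO, and both calls held without each library in turn (adjusted p at most 0.00537 and 0.0196). The KO call was lost in a fit of the KO-labelled groups alone (adjusted p = 0.0525).

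Itgb4, the beta chain of the hemidesmosome integrin, was at 11.6, 25.8 and 31.5 CPM in WT sham, against 120.7, 77.7 and 70.2 in WT I/R. It was at 45.5, 33.3 and 33.8 in KO sham and 84.6, 152.8 and 52.8 in KO I/R, again with no overlap. The log2 fold change was 1.96 ± 0.44 (adjusted p = 0.00889) in WT and 1.36 ± 0.43 (adjusted p = 0.0379) in KO. The WT call held without each library in turn (adjusted p at most 0.0413). The KO call was lost without any KO sham library, KO I/R 1, KO I/R 2, WT sham 2 or WT I/R 2 (adjusted p 0.0504 to 0.157) and with whole-library totals (0.0635).

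Itga6, the alpha chain that pairs with Itgb4, did not pass the test, with means of 114.0 ± 11.3 CPM in WT sham and 182.0 ± 47.7 in WT I/R, and of 168.9 ± 106.8 in KO sham and 220.4 ± 46.2 in KO I/R (SD, n = 3). Itga3 reads per Itga6 read in WT were 1.12, 1.42 and 1.65 after sham and 3.44, 3.91 and 2.78 after I/R, a log2 rise of 1.27 (exact permutation p = 0.1). In KO the rise was 0.76 (exact permutation p = 0.2), and the groups overlapped.

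Itgb8, whose protein pairs with the alpha v chain and releases active TGF beta from its latent form, was at 415.1, 229.5 and 329.6 CPM in WT sham, against 89.1, 86.9 and 125.1 in WT I/R. It was at 528.7, 358.9 and 139.2 in KO sham and 111.4, 77.7 and 203.9 in KO I/R. The WT groups did not overlap, and in KO the library labelled KO sham 3 lay below KO I/R 3. On the log2 scale the fold change was -1.69 ± 0.47 (adjusted p = 0.0242) in WT and -1.39 ± 0.46 (adjusted p = 0.0485) in KO. The WT call was lost without WT sham 1, WT sham 3 or the WT I/R libraries 1 and 2, each alone (adjusted p 0.0629 to 0.0937), the KO call without any library other than KO sham 3 and KO I/R 3 (0.0582 to 0.186), and both with whole-library totals (0.0806 and 0.107).

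Of the other integrin alpha chains, Itga2, Itga10, Itga2b and Itgax did not pass. Itga2, a collagen receptor chain, was at 1.6 to 2.36 CPM in WT sham and 4.21 to 6.56 in WT I/R (log2 1.53 ± 0.58, adjusted p = 0.08). In KO sham it was at 2.68 to 10.6, with the top value in KO sham 1, and in KO I/R at 3.37 to 6.85. Itga2b, the platelet chain, lay at 16.6 to 62.2 CPM over all libraries while the platelet markers Gp6 and Treml1 summed to at most 2.41. Itgax, the chain of dendritic cells and some macrophages, lay at 1.18 to 17.7.

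Both metalloproteinases tested rose. Mmp10 (ENSMUSG00000047562), stromelysin-2, an enzyme that cuts proteoglycans, laminin and other non-fibrillar matrix, had no count in any WT sham library and was at 19.3, 13.3 and 6.97 CPM in WT I/R. Against a floor of 3 counts over the WT sham group, which is 0.202 CPM, it was at least 65.3-fold higher in WT I/R (adjusted p = 0.000708). It was at 0.323, 0.193 and 0.537 CPM in KO sham and 10.2, 7.7 and 2.22 in KO I/R, a log2 fold change of 4.22 ± 0.78 (adjusted p = 0.00499). All I/R libraries were above all sham libraries, and both calls held without each library in turn (adjusted p at most 0.00401 and 0.0224). Without both KO sham 1 and KO sham 3, which leaves KO sham 2 alone, the KO log2 change was 4.96.

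Mmp19, a metalloproteinase that cuts basement membrane proteins, was at 1.05, 1 and 0.59 CPM in WT sham, against 24.4, 23.2 and 12.9 in WT I/R (log2 4.48 ± 0.84, adjusted p = 0.00379). It was at 5.49, 1.35 and 0 in KO sham and 17.2, 20.2 and 14.6 in KO I/R (log2 2.83 ± 0.75, adjusted p = 0.0186). No groups overlapped, and the sham library with the highest value was KO sham 1. Without KO sham 1 the KO log2 change was 4.49, and without KO sham 2 its adjusted p was 0.0658. Exons of Mmp19 share 789 bases with Tmem198b on the opposite strand, and without knowledge of strand use their reads cannot be told apart.

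**Figure D3:**
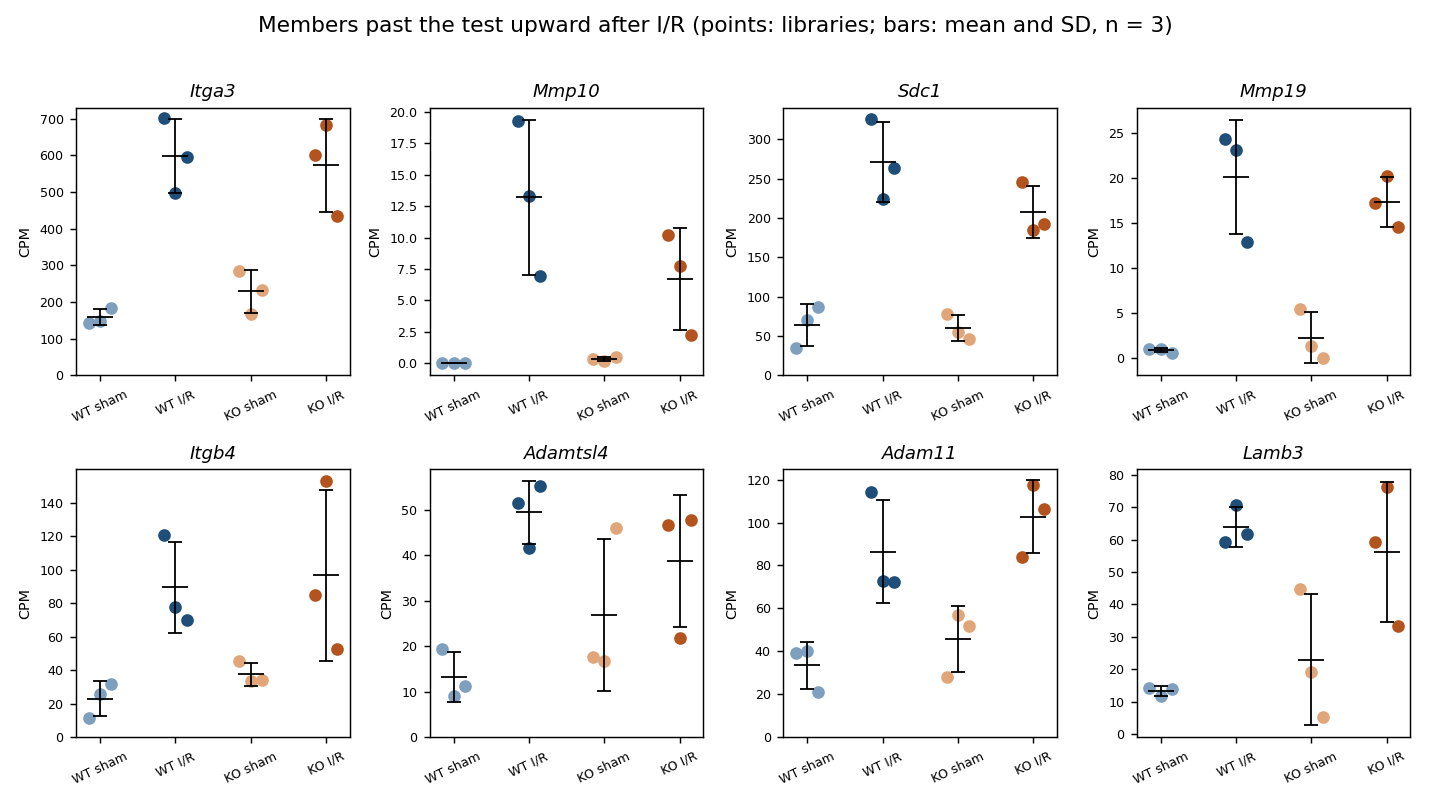
CPM of the 8 members that rose in WT, with 1 point per library and bars for the mean and SD of 3 libraries. In every panel the 3 WT I/R points lie above the 3 WT sham points, and in Lamb3 and Adamtsl4 the KO-labelled groups overlap.

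Timp3, the inhibitor that binds the matrix itself and blocks metalloproteinases and Adam and Adamts proteases, had means of 111.3 FPKM in WT sham and 61.3 in WT I/R, above those of Sdc4 in sham and below them after I/R. It was at 3740.6, 3217.8 and 3156.8 CPM in WT sham, against 1672.7, 1599.8 and 1758.7 in WT I/R. It was at 4731.4, 4665.5 and 3171.3 in KO sham and 1751.0, 974.6 and 2484.5 in KO I/R. Every I/R library was below every sham library. The log2 fold change was -1.01 ± 0.32 (adjusted p = 0.0447) in WT and -1.27 ± 0.33 (adjusted p = 0.0158) in KO. The WT call was lost without any 1 WT library, KO sham 2 or KO I/R 1 (adjusted p 0.0541 to 0.142), the KO call without KO I/R 1 (0.0502), and both with whole-library totals (0.178 and 0.0638). Timp3 lies within Syn3, and their exons share 1733 bases on opposite strands.

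The Adam and Adamts families held 1 rise in both labels. Adam11, a family member that lacks protease activity and is best known in neurons, was at 39.4, 40.3 and 20.9 CPM in WT sham, against 114.1, 72.8 and 72.3 in WT I/R (log2 1.37 ± 0.34, adjusted p = 0.015). It was at 28.2, 56.7 and 52 in KO sham and 84, 117.6 and 106.4 in KO I/R (log2 1.17 ± 0.34, adjusted p = 0.0264). No groups overlapped. The WT call was lost without WT sham 3 (0.061) or WT I/R 1 (0.0746), and the KO call without KO sham 1 (0.0813) or with library 2 (0.071) or 3 (0.0526) of KO I/R left out.

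Adamtsl4, a protein without protease activity that binds fibrillin microfibrils, rose in WT from 19.4, 9.01 and 11.2 to 51.6, 41.7 and 55.2 CPM (log2 1.91 ± 0.46, adjusted p = 0.0133). In KO it went from 17.7, 16.8 and 46.1 to 46.6, 21.9 and 47.8 CPM (log2 0.54 ± 0.44, adjusted p = 0.401), with the high sham value in KO sham 3. Without KO sham 3 the KO log2 change was 1.17, and the WT call was lost without WT sham 2 (0.0525) or WT sham 3 (0.056). No single omission gave a KO call of Adamtsl4, with log2 changes from 0.29 to 1.17 (adjusted p 0.0533 to 0.713). Adamtsl1 was past the test in KO, from 13.1, 10.4 and 23.1 to 4.63, 2.41 and 3.69 CPM (log2 -2.10 ± 0.56, adjusted p = 0.02; 0.0685 without KO I/R 2). In WT its log2 change was -1.53 (adjusted p = 0.0713), and without WT sham 2 that change was past the test (adjusted p = 0.0226), while it was -0.84 without WT sham 3.

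Adam1a, best known from testis, went from 16, 16.6 and 31.1 to 9.84, 8.78 and 8.19 CPM in WT (log2 -1.25 ± 0.39, adjusted p = 0.0422) and from 23.7, 22.8 and 44.5 to 6.29, 6.5 and 11.8 in KO (log2 -1.88 ± 0.40, adjusted p = 0.00702). Its groups did not overlap, and the KO call held without each library in turn (adjusted p at most 0.0314). In WT the call was lost without any 1 WT library or KO I/R 1 (0.0512 to 0.183). Its exons share 4779 bases with Gm42878 on the same strand, so the values are uncertain. Adam15, the most abundant Adam protease per length, Adam4, Adamts9, Adamts12, Adamts16 and Adamtsl5 did not pass. Adam15 had means of 6.65, 8.93, 6.3 and 7.65 FPKM in sham and I/R of WT and then of KO. Adamts16 was lower in all I/R libraries than in all sham libraries of its label (log2 -1.44 and -1.74, adjusted p 0.112 and 0.0566).

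**Figure D4:**
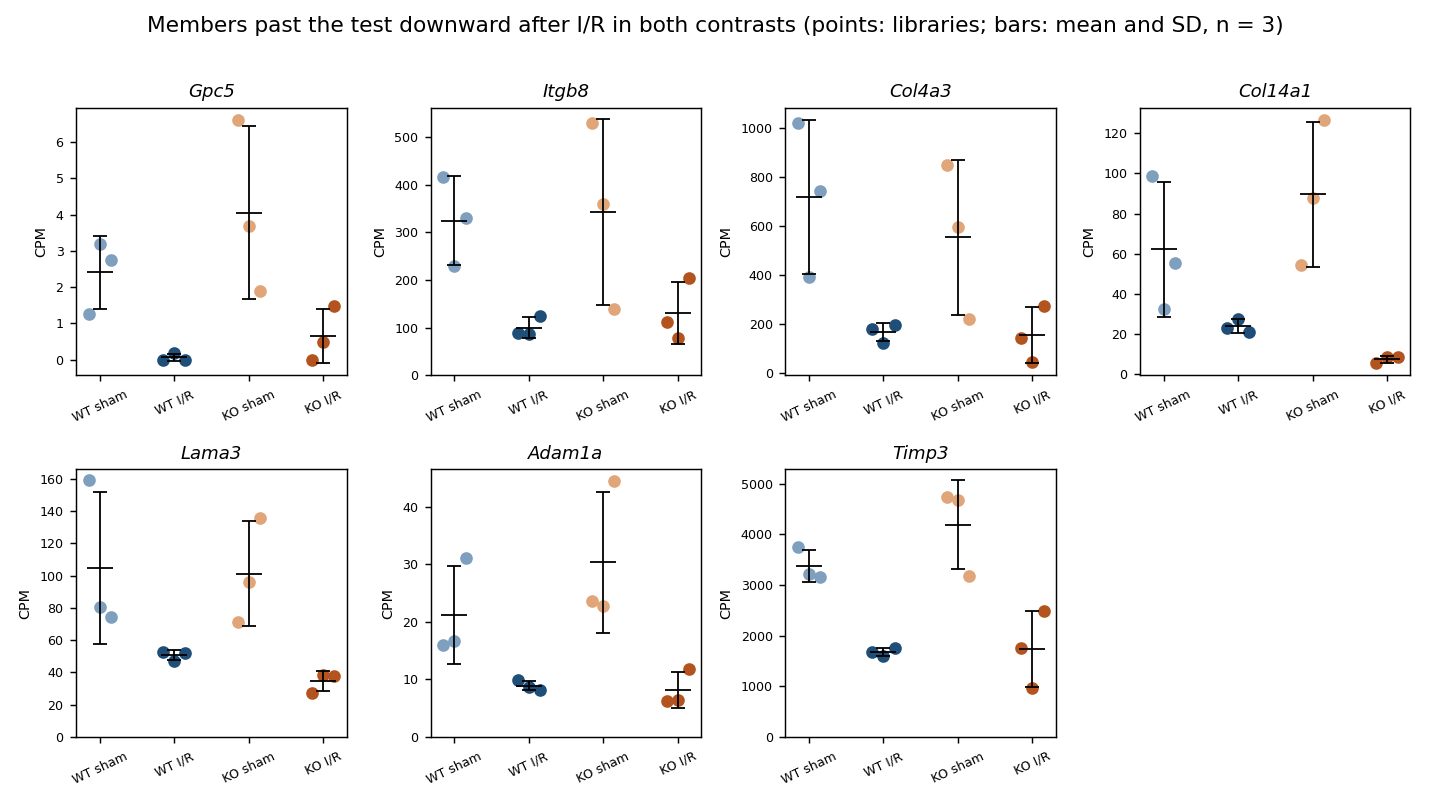
CPM of the 7 members that fell in both labels, with 1 point per library and bars for the mean and SD of 3 libraries. WT sham and WT I/R do not overlap in any panel, and in Itgb8 and Col4a3 the lowest KO sham point, KO sham 3, lies below the highest KO I/R point.

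The 16 KO calls were set against the doubted libraries. Leaving out both KO sham 1 and KO sham 3 leaves KO sham 2 as the only KO sham library, and its Lrrk2 level lay among WT sham. A single library gives its group no spread, so calls from that fit are not counted here. Among members called in either label, 4 KO log2 changes then moved by over 1.5 times. They were those of Mmp10 (from 4.22 to 4.96), Mmp19 (from 2.83 to 3.67), Adamtsl1 (from -2.10 to -1.51) and Adamtsl4 (from 0.54 to 1.23). In a fit of the KO-labelled groups alone, 6 calls were kept, those of Adam1a, Adamtsl1, Col14a1, Lama3, Mmp10 and Sdc1. In that fit 9 were lost, with adjusted p from 0.0525 for Itga3 to 0.198 for Col16a1, and they included Adam11 (0.0783), Itgb4 (0.0858), Mmp19 (0.102) and Timp3 (0.126). Over all genes it called 3.81% up and 3.77% down, against 11.9% and 11.5% in the fit of all 4 groups. With reads recovered for KO I/R 2, all 16 calls were kept and Adamts16, Fbln1, Itgax and Lama1 were added. The recovered reads of that library were 471 for Col4a3, against 188 counts, 8589 for Timp3, against 4051, and 231 for Adamtsl4, against 91. The KO log2 change of Adamtsl4 was then 0.79 (adjusted p = 0.147), and with whole-library totals as well it passed the test, at 1.05 (adjusted p = 0.0294). Recovered reads with whole-library totals kept 12 of the 16 calls. They lost those of Col4a3, Gpc5, Itgb4 and Itgb8 (adjusted p 0.0604 to 0.0914 by edgeR).

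The genotype labels were compared in sham kidneys, after I/R, and as a difference of the changes after I/R. By edgeR at an adjusted p under 0.05, 0 of 41 members were called in each of these, as were 0% of all genes, and DESeq2 also called 0 members. Over all genes, DESeq2 called 11 up and 11 down of 5646 in sham and 2 up and 0 down of 9862 after I/R. For the difference of changes it called 7 up and 7 down of 5454. At an unadjusted p under 0.05, 3 members passed in sham (7.32%, against 5.65% of all genes), 4 after I/R (9.76%, against 2.77%) and 2 for the difference of changes (4.88%, against 5.25%). These directions rest on labels that the Lrrk2 counts did not bear out in KO sham 2. After I/R the Lrrk2 counts did not bear out the labels either, at 74.2, 56.5 and 146.4 CPM in KO I/R against 58.3, 69.7 and 80.8 in WT I/R.

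Col14a1 had the lowest p for the difference of changes. Its change after I/R was more negative in KO than in WT by 2.19 on the log2 scale, with a value of -2.19 ± 0.58 (unadjusted p = 0.00263, adjusted p = 0.606). After I/R it was at 7.55 ± 1.73 CPM in KO and 23.9 ± 3.51 in WT (SD, n = 3; log2 -1.66, adjusted p = 1 by edgeR). Mmp10 was the other member with an unadjusted p under 0.05 for the difference of changes (0.0161, adjusted p = 0.891), and with no count in WT sham its size has no fold. Gpc5, with 1 count in WT I/R, has no usable size either (unadjusted p = 0.167). In sham, the 3 members were Mmp10, Itga2 and Adamtsl4, and after I/R they were Col14a1, Adamts12, Gpc5 and Fbln2. Lamb3, Adamtsl4, Col16a1, Col26a1 and Adamtsl1, past the test after I/R in 1 label alone, are thus not shown to differ between the labels.

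In sham, 34 of the 41 members were higher in KO than in WT, against 2664 of all 5048 genes. The members' median log2 difference was 0.53, against 0.03 over all genes. Leaving out KO sham 1 and KO sham 3 leaves KO sham 2 as the only KO sham library, and its Lrrk2 level lay among WT sham. The members' median was then 0.14, against -0.03 over all genes, and 27 of 41 were higher, a count not given here over all genes. For the difference of changes the median was -0.48, against 0.01 over all genes. Without both libraries it was -0.23, against 0.07 over all genes. KO sham 3 had the high mitochondrial share and KO sham 1 the high Havcr1, and the part of either in these medians beyond the values without them was not tested. The 36 members with the same sign of change after I/R in both labels include all 13 that passed in both, and no member passed in opposite directions. The matching counts over all genes are not given here, so this agreement is not shown to be particular to the members.

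**Figure D5:**
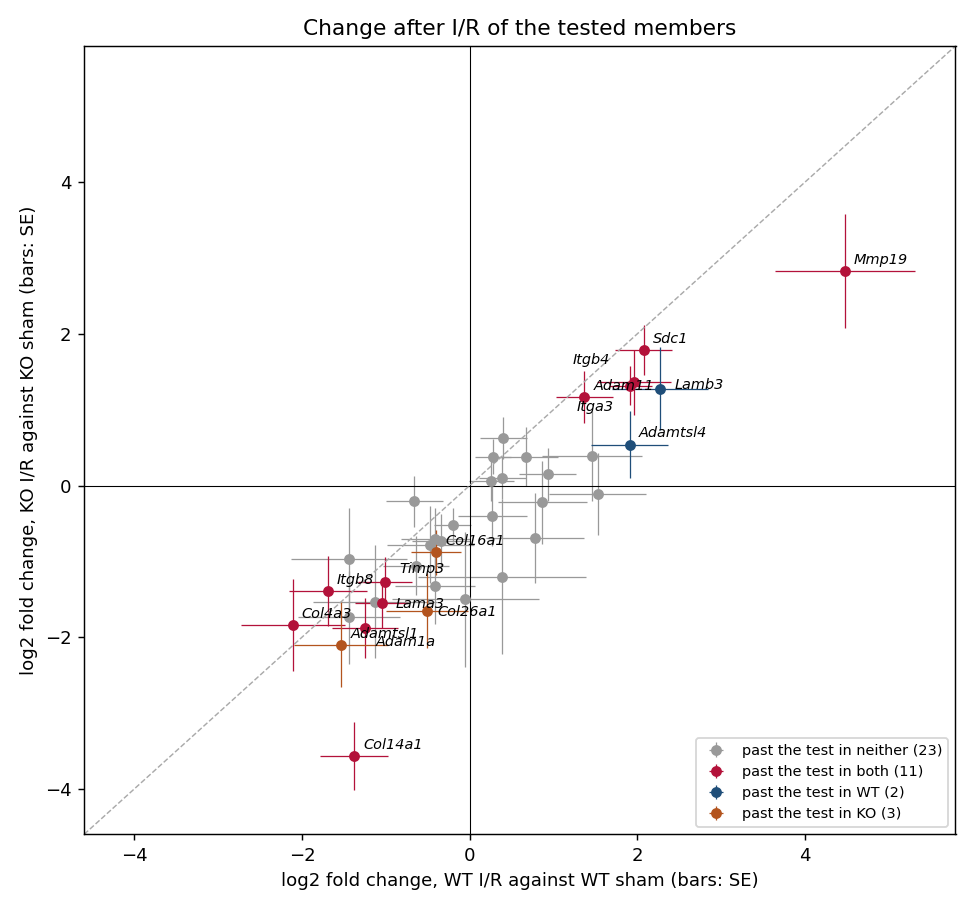
Log2 fold change after I/R in WT (horizontal) and KO (vertical) with SE bars for 39 of the 41 tested members, where the dashed line marks equal change. Mmp10 and Gpc5 are left out because a WT group has at most 1 count, and Col14a1 lies farthest below the line among those past the test in both.

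Other genes of matrix and adhesion pathways were counted from lists, of which only part of the genes is in the table. Of 13 tested genes in the list of other matrix glycoproteins and proteoglycans, 5 rose and 2 fell in WT, while 1 rose and 5 fell in KO. Tnc, the adhesion-modulating tenascin of injured tissue, rose from 14.6 ± 7.67 to 205.5 ± 16.7 CPM in WT (log2 3.81, adjusted p = 0.000672 by edgeR) and from 36.6 ± 25.8 to 134.8 ± 32.7 in KO (log2 1.87, adjusted p = 0.0158; SD, n = 3). In WT, elastin (Eln, log2 1.42) and the fibulin Efemp2 (log2 1.44) also rose. Fmod, a small proteoglycan that binds collagen fibrils, fell in both (log2 -2.34 and -3.29). In KO, Ltbp4 (log2 -1.64), a protein that holds latent TGF beta in the matrix, and the basement membrane linker Nid2 (log2 -1.09) fell too. For no gene of these lists did the difference of changes pass the test.

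Of 11 tested genes of the integrin adhesion complex, 4 rose and 0 fell in each label, and they were Flna, Tgfb1i1, Parvb and Cd151 in both. Filamin A (Flna), which ties integrins to actin, rose from 292.7 ± 102.9 to 1369.3 ± 107.3 CPM in WT (log2 2.23, adjusted p = 0.00173 by edgeR; SD, n = 3). Cd151, a tetraspanin that binds laminin-receptor integrins such as that of Itga3, had log2 changes of 1.44 and 2.16 (adjusted p 0.0363 and 0.00613). Of 6 tested genes of TGF beta signalling, 2 rose and 0 fell in WT, and 2 rose and 1 fell in KO. Tgfb1 rose from 46.6 ± 2.52 to 156.5 ± 17 CPM in WT and from 71.6 ± 18.9 to 143.0 ± 52.2 in KO (SD, n = 3), and Lrrc32, which presents latent TGF beta on cells, rose by log2 2.71 and 1.86, while the co-receptor Tgfbr3 fell in KO (log2 -1.29). Of 5 tested genes of collagen folding and processing, 1 rose in each label, the prolyl isomerase Fkbp10 (log2 3.01 and 2.04). Of 3 tested genes of the plasminogen system and other proteases, Serpine2, an inhibitor of serine proteases, rose (log2 1.40) and the brush border protease Mep1a fell (log2 -2.81) in WT, and 0 passed in KO.

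Cell type markers moved with I/R as well, and in whole kidney a smaller share of a cell type and less RNA per cell cannot be told apart. Of 3 proximal tubule markers tested, 2 fell in each label (Aqp1 and Slc34a3). Slc5a2 did not pass, with log2 changes of 0.04 in WT and -0.78 in KO (adjusted p 0.95 and 0.182 by edgeR). The summed level of the list was 4041.3 to 4960.6 CPM in WT sham and 1240.5 to 1489.2 in WT I/R. It was 2626.2 to 4542.0 CPM in KO sham and 897.4 to 1231.5 in KO I/R. The fibroblast and pericyte list (Pdgfrb, Cspg4 and Dpt) summed to 135.9 to 168.8 CPM in WT sham and 211.2 to 287.3 in WT I/R, and to 173.5 to 264.5 in KO sham and 174.4 to 216.5 in KO I/R. Of that list, Pdgfrb rose in WT (log2 1.40, adjusted p = 0.00318) and Dpt fell in KO (log2 -1.70, adjusted p = 0.0472). The log2 change of Dpt in WT was 0.06 (adjusted p = 0.944), and that of Pdgfrb in KO was -0.16 (adjusted p = 0.673). Cspg4 did not pass in either, with log2 changes of -0.03 in WT and -0.14 in KO. Of 4 monocyte and macrophage markers, Csf1r and Cx3cr1 fell in each label. The others did not pass, with log2 changes in WT and KO of 0.75 and 0.62 for C1qa and of -0.78 and -0.21 for Adgre1. The list summed to 383.0 CPM in KO I/R 2, within the KO sham range of 257.3 to 442.4. Of 4 lymphocyte markers tested, Cd8a fell in WT and Cd4, Cd79a and Cd8a in KO, and the list summed to at most 19.9 CPM in any library. Of 5 markers of the loop, distal tubule and collecting duct, Slc4a1, the anion exchanger of intercalated cells, fell in each label (log2 -5.12 and -4.09). Umod, Aqp2, Aqp3 and Atp6v0d2 did not pass in either. Of 3 neutrophil markers in the table, both that were tested, Csf3r and Lcn2, rose in each label, and Lcn2 is also made by injured tubules. The endothelial marker Tie1 did not pass in either (adjusted p 0.136 and 0.416). No podocyte marker of the list was analysed here, so the falls of Col4a3 and Itgb8 have no podocyte level beside them. The part of cell composition in the members' changes was not tested.

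Of the 17 members not tested, 6 had no count in any library (Adam20, Adam24, Adam26a, Adam26b, Adam34 and Loxhd1). The other 11 had between 1 and 69 counts over the 12 libraries: Adam21, Adam28, Adamdec1, Adamtsl3, Col25a1, Col2a1, Col6a5, Col8a2, Fbn2, Itga11 and Itgad. Itga11, a collagen receptor chain of fibroblasts, had 2 counts in WT sham and 15 in WT I/R, a ratio of 6.66 (exact 95% interval 1.55 to 60, counting error only), and 0 in KO sham and 10 in KO I/R. Adamtsl3 had 34 counts in KO sham and 3 in KO I/R, a ratio of 11.2 (3.54 to 57.2), and 27 and 5 in WT. Col4a3bp, which matches by letters alone, did not pass in either label (log2 -1.44 and -0.97, adjusted p 0.156 and 0.317).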

How the data were processed

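The authors deposited whole-number counts per gene and FPKM values side by side, per the file headers. HISAT2 and StringTie were used, per the submitters' processing notes. For the build, the counting rules and strand use, no statement was found in the labels or headers. Loci were read with GENCODE M21 annotation. FPKM values, used only to compare levels between genes, imply lengths over the longest transcript for 47 of 52 members with a length.

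Counts as deposited were tested with edgeR 4.0.16 (quasi-likelihood test, TMM factors, filterByExpr with minimum count 10 and minimum total 15, 1 model of 4 groups, R 4.3.3), with Benjamini-Hochberg adjustment over 5048 genes and a threshold of 0.05. The test was checked on simulated counts. CPM uses TMM-scaled library sizes, and standard errors come from the F statistic. The FPKM scale gave whole-library totals, of which the table holds 29.6% to 31.6% in 11 libraries, and, for KO I/R 2, reads recovered from its FPKM column (99.9% whole within 0.05 reads). No replicates agreed within sampling noise (chi-square per degree of freedom at least 25). Ratios within libraries were tested by exact permutation of log2 ratios. Floors and intervals (95%) cover counting error only.

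The members and lists were chosen with earlier results of these data known. Genes named are members past the test in any contrast, the most abundant tested member of each family by FPKM, and up to 4 called genes per list and contrast; other members are named to account for all of them, after their values were seen. Alternatives were RLE factors, whole-library totals, no filter, a fit of only the contrast's own groups, DESeq2 1.42.0, a replicate block, recovered reads for KO I/R 2 and each library left out. Whole-library totals together with recovered reads, and leaving out both KO sham 1 and KO sham 3, were chosen after seeing the data.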

Additional observations from a re-analysis of the deposited data

How the results depend on the processing

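None of the 18 members called after I/R in either label changed direction under any alternative run. In WT, the 8 rises became 14 with only the groups of the contrast and 5 to 9 with 1 library left out. The 7 falls became 2 with whole-library totals, 4 with no filter on low counts and 0 to 8 with 1 library left out. Over all genes, WT rises went from 10.2% to 20.4% with only those groups and to 5.48% to 13.7% with 1 library left out. WT falls went from 10.7% to 6.44% with whole-library totals and to 4.41% of 9885 genes with no filter. With 1 library left out they were 4.66% to 13.9%. In KO, the 6 rises became 2 with only the groups of the contrast and 4 to 6 with 1 library left out. The 10 falls became 5 with whole-library totals, 4 with only the groups of the contrast, and 4 to 9 with 1 library left out. Over all genes, KO rises went from 11.9% to 3.81% with only those groups and to 8.31% to 14% with 1 library left out. KO falls went from 11.5% to 7.81% with whole-library totals and to 3.77% with only those groups. With 1 library left out they were 6.91% to 12.4%. The cause was not tested. The fit without both KO sham 1 and KO sham 3 leaves KO sham 2 alone in its group, so its member calls after I/R are not counted here. Apart from the replicate block, the other alternatives stayed within 1.5 times, DESeq2 with 8 and 8 in WT and 6 and 12 in KO, and recovered reads for KO I/R 2 with 9 and 7 and 6 and 14. The genotype comparisons stayed at 0 member calls in each alternative run that kept more than 1 library per group. Some of these runs did call other genes, among them DESeq2 and the fit with no filter on low counts. A fit with only the groups of the contrast was not run for the difference of changes, which uses all 4.

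With the replicate number as a block, the WT falls were 4 and the other counts 8, 5 and 7. Over all genes the WT shares with that block were 10.3% up and 10.1% down, and the KO shares 11.4% and 11.1%. Whether equal numbers mark paired samples is not stated in the labels. The correlation of same-numbered libraries' deviations ran from -0.37 to 0.299, and 7 of 12 libraries correlated best with their own number. These values cannot decide it, because each deviation is taken from a mean of only 3 libraries. Of the members' calls, 5 of 15 in WT and 6 of 16 in KO held without every library in turn, and 0 of 7 falls in WT and 3 of 10 in KO did. With 3 libraries a group and a common spread of 0.375 (square root of the dispersion), the 7 falls in WT had adjusted p from 0.0151 to 0.0447, close to the threshold.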
